A study of Mus musculus with 6 samples.

Results

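The 42 genes described here encode the actin cytoskeleton of the hepatocyte and serum response factor (SRF), the transcription factor that controls many of them. They were chosen by symbol, from a list of actins, actin-binding proteins, myosin II chains, adhesion proteins and SRF itself, and all 42 symbols matched 1 Ensembl identifier each among the 55487 gene rows of the count tables. The list was drawn up with earlier results of these data known. All 42 passed the filter on low counts and were among the 12741 genes tested. RNA came from hepatocytes, the main epithelial cells of the liver, of mice 6 to 8 weeks old, 48 h after the cells had been isolated. The 2 groups were wild type (WT) and homozygous for AEG-1-C75S, with 3 libraries each, and both were offspring of heterozygous parents. AEG-1 is a membrane protein encoded in the mouse by *Mtdh*, and in C75S the cysteine that is palmitoylated is replaced by serine. All 6 libraries carry the treatment label Control. Separate mice for the 3 libraries of a genotype are not stated, so p-values measure the spread between libraries, which may be technical.

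Actin filaments are built from monomers that profilin delivers, started by nucleators such as the Arp2/3 complex and severed by cofilin. They are cross-linked by alpha-actinin and filamin, decorated by tropomyosin and pulled by non-muscle myosin II. SRF binds a DNA element called the CArG box in the promoters of actin and contractile genes, and its cofactors MRTF-A and MRTF-B are held in the cytoplasm by free actin monomers, so that filament assembly and transcription of these genes are linked. A second class of cofactors, the ternary complex factors, acts with SRF on immediate early genes such as *Egr1*. Hepatocytes plated in culture flatten, form stress fibres and adhesions, and are known to turn on cytoskeletal genes that are low in the intact liver.

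CArG boxes were searched in RefSeq promoter windows of GRCm38.p6, each from 250 bases before to 50 bases after a transcript start. The form sought was CC and GG around a run of A and T letters, 10 letters in all, which reads alike on both strands. No mismatch was allowed, so boxes of another form or outside the windows were not counted. Windows were found for 39 of the 42 genes, and *Actb*, *Cotl1* and *Tagln* are not in that table. A CArG box lay in a window of 9 of the 39 genes (23.1%), against 488 of 27025 genes with a window (1.81%) and 157 of 9679 tested genes (1.62%). Because SRF targets were sought when the list was drawn up, this share describes the choice of genes. It was 5 of 15 among the genes called higher in C75S and 4 of 24 among the others. The stretches below hold the CArG box in capitals with up to 40 bases on each side, upstream of the transcript start, 5′ to 3′ on the strand of the gene. *Srf* is shown because its own promoter carries 2 boxes, 82 and 62 bases before the start, *Actg1* and *Vcl* as genes with a box that were not called, and the other 5 as the genes with a box that were called higher.
*Srf*, chr17:46556195-46556284, minus strand: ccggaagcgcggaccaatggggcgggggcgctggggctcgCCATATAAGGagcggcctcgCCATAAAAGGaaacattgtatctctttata
*Actc1*, chr2:114052876-114052962, minus strand: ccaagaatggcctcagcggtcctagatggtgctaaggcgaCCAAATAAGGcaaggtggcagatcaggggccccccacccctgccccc
*Cnn2*, chr10:79988504-79988593, plus strand: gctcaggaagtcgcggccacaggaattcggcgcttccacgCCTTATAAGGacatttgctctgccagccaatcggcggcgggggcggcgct
*Lima1*, chr15:99820150-99820236, minus strand: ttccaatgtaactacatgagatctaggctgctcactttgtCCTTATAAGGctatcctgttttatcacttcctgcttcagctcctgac
*Myl9*, chr2:156775263-156775352, plus strand: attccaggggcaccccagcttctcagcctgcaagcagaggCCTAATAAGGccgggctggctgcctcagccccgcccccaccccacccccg
*Vil1*, chr1:74409271-74409360, plus strand: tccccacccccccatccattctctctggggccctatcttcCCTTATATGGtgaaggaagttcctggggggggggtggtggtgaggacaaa
*Actg1*, chr11:120348536-120348625, minus strand: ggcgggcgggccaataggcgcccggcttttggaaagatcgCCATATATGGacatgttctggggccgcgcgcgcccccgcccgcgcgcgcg
*Vcl*, chr14:20929148-20929220, plus strand: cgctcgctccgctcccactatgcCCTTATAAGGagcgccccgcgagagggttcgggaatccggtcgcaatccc
The same 10 letters, CCTTATAAGG, formed the box of *Cnn2*, *Lima1* and *Vcl*, 56, 47 and 227 bases before the RefSeq starts. The windows of *Lima1* and *Actc1* lie at starts inside the genes as GENCODE places them, that of *Lima1* far from the gene's 5′ end. *Fhl2* had a box in each of 2 windows, 96 and 31 bases before alternative starts, and the second one, CCTTATATGG, had the letters found 73 bases before the start of *Vil1*. A match gives letters in this window and was not tested for binding.

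The libraries held 16944723 to 21044292 counts on genes, C75S replicate 1 being the shallowest, and a count of 3 was worth 0.142 to 0.172 CPM (counts scaled to TMM-adjusted library sizes). The hepatocyte identity of the samples was checked on 15 marker genes, which were all tested and together made up 8.87% of counts in C75S and 9.57% in WT. Their sum was 80944 to 95745 CPM in C75S, lowest in C75S replicate 1, and 91471 to 99109 CPM in WT. The log2 fold change was below 0 for 10 of the genes and above 0 for 5, with a median of -0.03. Of these 15, 2 were called higher (*Apoa2* and *Fgb*) and 2 lower (*G6pc* and *Slc10a1*), against 1.74% and 1.37% of all tested genes. An unadjusted edgeR p under 0.05 was found for 6 of the 15, against 13.4% of all tested genes. The calls on both lower genes were lost without C75S replicate 1 or WT replicate 2. That on *G6pc* was also lost without C75S replicate 2 or WT replicate 1.

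The genes differed widely in level. On a scale of counts per kilobase of merged exons (scaled so that each library has the same total), *Actb* stood highest at 2338 ± 60.8 in C75S and 1977 ± 83.1 in WT (mean ± SD over the 3 libraries of each genotype, as for all such values). *Pfn1*, *Arpc2*, *Cfl1* and *Tagln2* followed, at 730.2, 629, 602 and 529 in WT. These are the general machinery of filament turnover, profilin, the Arp2/3 nucleator and cofilin, with the calponin-related protein transgelin-2. The muscle-type genes *Acta2*, *Actc1* and *Tagln* were much lower, at 3.53, 18.1 and 49.0 in WT. Not every muscle-type gene was as low: *Acta1*, skeletal muscle alpha-actin, which is not on the list, was at 96.2 in WT. *Actg1*, which encodes cytoplasmic gamma-actin, was lowest at 3.08 ± 0.282 in C75S and 3.01 ± 0.429 in WT. Its value is uncertain: 57.8% of its longest coding transcript is matched at 97% identity or more, over at least 75 bases, by 7 other genes, 4 of them pseudogenes, and reads that map to several places were not counted. The part of these copies in its low level was not tested. Near-identical copies also cover part of *Tpm3* (85.4% of the transcript, matched by *Tpm3-rs7*), *Tmsb10* (59.9%, 3 copies) and *Cfl1* (21.2%, the pseudogene *Gm6180*).

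**Figure D1:**
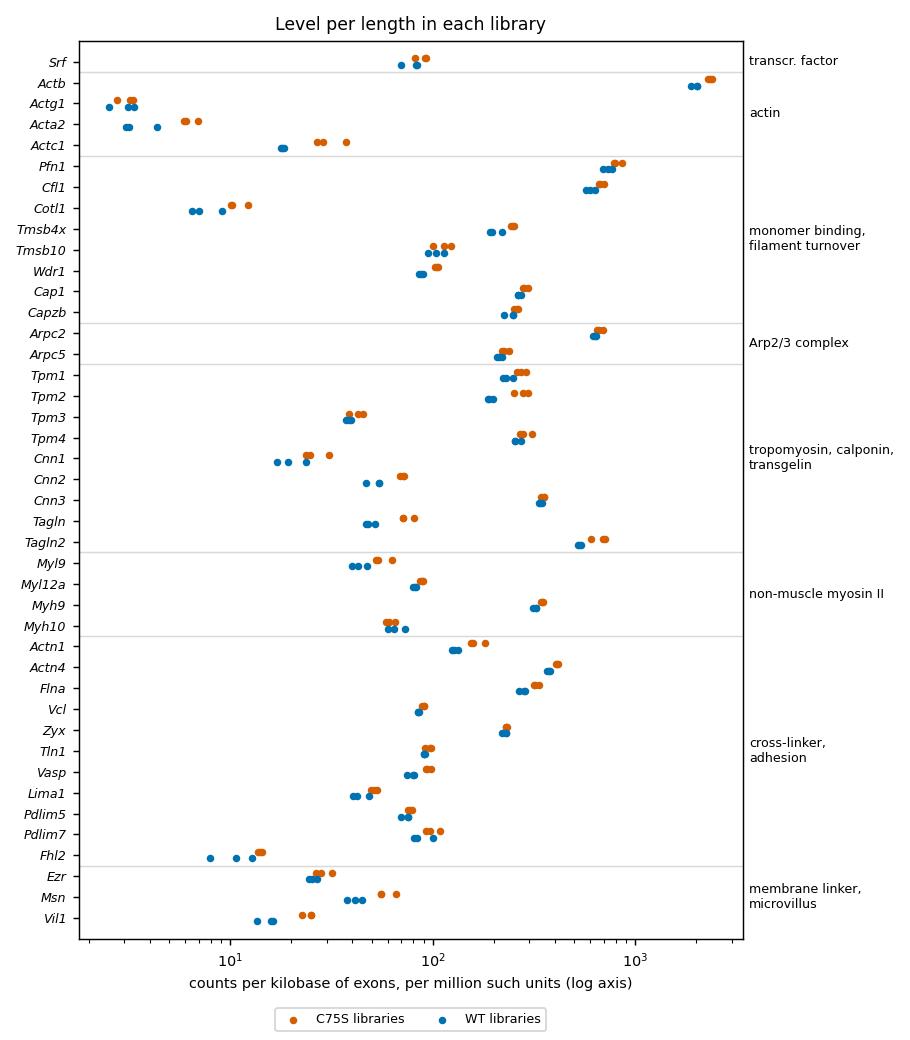
Level of each of the 42 genes in each of the 6 libraries, in counts per kilobase of merged exons scaled to the same total in each library, on a log axis; C75S libraries are orange and WT libraries blue, and genes are grouped by role. *Actb* is the most abundant at about 1977 units in WT and *Actg1* the least at 3.01, and most genes have their C75S points to the right of their WT points.

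Of the 42 genes, 17 were higher in C75S and 0 lower at an adjusted p-value under 0.05 in edgeR's quasi-likelihood test, with adjustment over all 12741 genes. Among all tested genes 222 were higher (1.74%) and 174 lower (1.37%). Both directions together came to 396 genes (3.11%). The unadjusted p-value was under 0.05 for 29 of the 42 genes, all of them higher, against 13.4% of all tested genes. The log2 fold change was above 0 for 41 of the 42 genes, against 49.1% of all genes, and its median was 0.17 against -0.003 over all genes. Every C75S library lay above every WT library for 31 genes (9.02% of all tested genes showed this), and below for 0 genes (8.96%). Because the 42 genes were chosen with earlier results of these data known, the shares over all genes are description and no test of the list. The changes were small: the 17 called genes ran from 1.16-fold (*Flna*) to 1.77-fold (*Acta2*) and 4 of them exceeded 1.5-fold. The genes together made up 1.32% of counts in C75S and 1.16% in WT (means over libraries). Their summed level was 13159, 12956 and 13482 CPM in the C75S libraries and 11814, 11804 and 11479 CPM in the WT libraries, and without *Actb* it was 10907 to 11308 CPM against 9766 to 9991 CPM. In bulk RNA a rise in these transcripts per cell and a larger share of cells rich in them cannot be told apart.

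Libraries of 1 genotype differed in how far they lay from WT. The median over the 42 genes of the log2 ratio to the WT mean was 0.22, 0.14 and 0.21 in C75S replicates 1, 2 and 3, and 0.02, 0.002 and -0.03 in the WT replicates. The WT values are held near 0 by construction, because these libraries form the WT mean. C75S replicate 3 was the highest of the 6 libraries for 26 genes and C75S replicate 1 for 13. WT replicate 3 was the lowest for 22 genes, WT replicate 1 for 11 and WT replicate 2 for 8. Leaving out single libraries changed the number of calls: it was 10 without WT replicate 2, 12 without WT replicate 3, 12 without C75S replicate 3, 14 and 15 without C75S replicates 1 and 2, and 19 without WT replicate 1. All calls in these fits were in the higher direction.

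**Figure D2:**
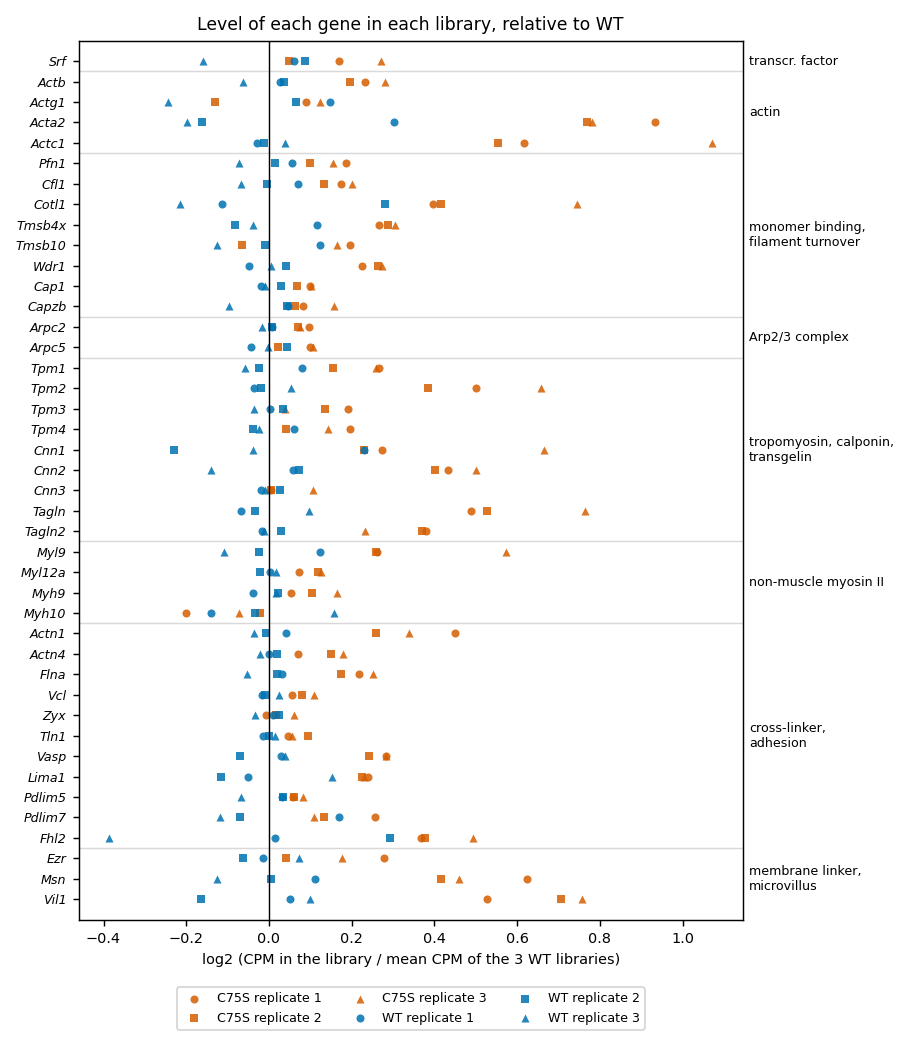
Each gene's level in each library as log2 of its CPM over the mean CPM of the 3 WT libraries, with replicates 1, 2 and 3 drawn as circles, squares and triangles, orange for C75S and blue for WT. C75S points lie to the right of 0 for most genes, farthest for *Acta2*, *Actc1*, *Tagln* and *Vil1*, while *Myh10* has its C75S points at or left of 0.

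*Srf* itself (ENSMUSG00000015605, chromosome 17, 46548329 to 46556175, minus strand) was measured at 86.4, 79.4 and 92.7 CPM in the C75S libraries and 80.05, 81.5 and 68.8 CPM in the WT libraries. C75S replicate 2 lay below 2 of the WT libraries, so the genotypes overlapped. Its difference, a log2 fold change of 0.16 with an SE of 0.07 (edgeR adjusted p = 0.245), did not pass the threshold, nor did it in any of the 15 alternative fits.

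Among the actins, *Actb*, the cytoplasmic beta-actin that forms most of the actin in non-muscle cells (ENSMUSG00000029580, chromosome 5, 142903115 to 142906754, minus strand), was measured at 2104, 2049.8 and 2174 CPM in the C75S libraries and 1822, 1836 and 1713 CPM in the WT libraries. Every C75S library was above every WT library, and *Actb* rose 1.18-fold, a log2 fold change of 0.24 with an SE of 0.05 (edgeR adjusted p = 0.0148). The call was lost without C75S replicate 3, WT replicate 2 or WT replicate 3 (edgeR adjusted p up to 0.106). *Actc1*, cardiac alpha-actin (ENSMUSG00000068614, chromosome 2, 114047282 to 114053548, minus strand), was at 15.2, 14.6 and 20.9 CPM in the C75S libraries and 9.73, 9.84 and 10.2 CPM in the WT libraries. C75S replicate 3 stood above the other C75S libraries, and the groups did not overlap. It rose 1.7-fold, a log2 fold change of 0.76 with an SE of 0.13 (edgeR adjusted p = 5.09e-04), and stayed under the threshold in all 15 alternative fits. *Acta2*, smooth muscle alpha-actin and a marker of activated stellate cells (ENSMUSG00000035783, chromosome 19, 34241090 to 34255590, minus strand), was at 4.996, 4.46 and 4.49 CPM in the C75S libraries and 3.23, 2.34 and 2.28 CPM in the WT libraries, from 84 to 94 counts per C75S library and 47 to 68 per WT library. It rose 1.77-fold, a log2 fold change of 0.82 with an SE of 0.21 (edgeR adjusted p = 0.0255), with no overlap. At these low counts the call was lost on leaving out either C75S replicate 1 or 2, or either WT replicate 2 or 3 (adjusted p up to 0.116). *Actg1* was at 2.87, 2.47 and 2.94 CPM in the C75S libraries and 2.99, 2.83 and 2.28 CPM in the WT libraries, which overlap, with a log2 fold change of 0.03 with an SE of 0.23 (edgeR adjusted p = 0.975) and the uncertainty given above.

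Of the 8 genes for monomer binding and filament turnover, 2 were called higher, against 17 of the 42 genes and 1.74% of all tested genes. *Tmsb4x*, thymosin beta-4, the main sequestering peptide of actin monomers (ENSMUSG00000049775, chromosome X, 167207093 to 167209315, minus strand), was at 113, 115 and 116 CPM in the C75S libraries and 102, 88.6 and 91.3 CPM in the WT libraries. The C75S libraries lay close together above all WT libraries, a log2 fold change of 0.29 with an SE of 0.06 (edgeR adjusted p = 0.0027). *Wdr1*, which helps cofilin take filaments apart (ENSMUSG00000005103, chromosome 5, 38526813 to 38563221, minus strand), was at 307, 316 and 318 CPM in the C75S libraries and 254, 270.5 and 263 CPM in the WT libraries. The gap between the groups exceeded the spread within either, a log2 fold change of 0.25 with an SE of 0.05 (edgeR adjusted p = 0.00215). Both were called in all 15 alternative fits. *Cfl1*, cofilin-1, which severs filaments, was at 652, 634 and 665 CPM in the C75S libraries and 607, 576 and 552 CPM in the WT libraries, without overlap. It missed the threshold at a log2 fold change of 0.17, SE 0.05 (adjusted p = 0.0852) and passed it in 4 of the 15 alternatives. *Pfn1*, profilin-1, which feeds monomers to growing ends, was at 675, 636 and 660.4 CPM in the C75S libraries and 617, 599 and 564 CPM in the WT libraries, also without overlap, with a log2 fold change of 0.15 with an SE of 0.05 (edgeR adjusted p = 0.154). *Cotl1*, the filament-binding coactosin-like protein, was measured at 5.85 ± 0.82 CPM for C75S against 4.06 ± 0.762 CPM for WT, with a log2 fold change of 0.53, SE 0.18 (adjusted p = 0.137), and *Tmsb10*, thymosin beta-10, at 48.2 ± 4.65 CPM for C75S against 44.8 ± 3.89 CPM for WT, with a log2 fold change of 0.10, SE 0.08 (adjusted p = 0.627). *Cap1*, which recycles cofilin-bound monomers, and *Capzb*, a subunit of the capping protein of fast-growing ends, had log2 fold changes of 0.09 and 0.10 (adjusted p = 0.425 and 0.404). Neither of the 2 listed subunits of the Arp2/3 complex, which starts branched filaments, was called. *Arpc2* was at 457 ± 4.47 CPM for C75S against 432 ± 4.12 CPM for WT, with a log2 fold change of 0.08, SE 0.05 (adjusted p = 0.502), and *Arpc5* at 173 ± 5.65 CPM for C75S against 164 ± 5.01 CPM for WT, with a log2 fold change of 0.08, SE 0.05 (adjusted p = 0.542).

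The tropomyosins, calponins and transgelins lie along filaments and regulate their use by myosin. They held 5 called genes of 9, against 17 of the 42 genes and 1.74% of all tested genes called higher. *Tpm2*, beta-tropomyosin (ENSMUSG00000028464, chromosome 4, 43514711 to 43523765, minus strand), had the smallest p-value of the 42 genes. It was measured at 266, 246 and 297 CPM in the C75S libraries and 184, 186 and 195 CPM in the WT libraries. All C75S libraries stood far above the narrow range of WT, and the rise was 1.43-fold, a log2 fold change of 0.52 with an SE of 0.06 (edgeR adjusted p = 4.58e-06). *Tpm1* (ENSMUSG00000032366, chromosome 9, 67022590 to 67049406, minus strand) rose from 540.3, 503 and 491 CPM in the WT libraries to 615, 569 and 612 CPM in the C75S libraries, a log2 fold change of 0.23 with an SE of 0.05 (edgeR adjusted p = 0.0158). This call was lost on leaving out either C75S replicate 1 or 3, or either WT replicate 2 or 3 (adjusted p up to 0.12). *Tpm3* was at 86.2 ± 4.54 CPM for C75S against 79.1 ± 1.93 CPM for WT and *Tpm4* at 212 ± 11.5 CPM for C75S against 194 ± 7.21 CPM for WT, with log2 fold changes of 0.12 and 0.13 that did not pass (adjusted p = 0.313 and 0.235). Per length, *Tpm2* made up 31.3% ± 1.66 of the 4 tropomyosins in C75S and 26.5% ± 1.30 in WT, and *Tpm4* 32.6% ± 0.87 and 36.0% ± 0.48. In both cases the groups did not overlap. The shares rest on merged-exon lengths and on the counts of *Tpm3*, 85.4% of whose transcript is matched by *Tpm3-rs7*, so their absolute size is uncertain.

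*Tagln*, transgelin or SM22-alpha, a protein of smooth muscle and of SRF-driven programmes (ENSMUSG00000032085, chromosome 9, 45929619 to 45936058, minus strand), was at 46.2, 47.5 and 55.9 CPM in the C75S libraries and 31.4, 32.2 and 35.2 CPM in the WT libraries. Every C75S library exceeded every WT library, by 1.51-fold in the fit, a log2 fold change of 0.60 with an SE of 0.08 (edgeR adjusted p = 2.57e-05). Its exons overlap those of the antisense gene *Gm48529* over 62.4% of their length. Counted without regard to strand, *Tagln* kept 13.1% of its counts and lost its call (adjusted p = 0.0616), and it was called in the other 14 alternatives. *Tagln2*, the form found in most cells (ENSMUSG00000026547, chromosome 1, 172500047 to 172507380, plus strand), was at 485, 481 and 437 CPM in the C75S libraries and 369, 380.0 and 369 CPM in the WT libraries. It rose 1.26-fold, a log2 fold change of 0.33 with an SE of 0.05 (edgeR adjusted p = 2.91e-04), though C75S replicate 3 lay below the other C75S libraries. *Cnn2*, the calponin of non-muscle cells (ENSMUSG00000004665, chromosome 10, 79988584 to 79996062, plus strand), was at 58.1, 56.8 and 60.9 CPM in the C75S libraries and 44.8, 45.2 and 39.1 CPM in the WT libraries. The C75S libraries were all above WT, a log2 fold change of 0.45 with an SE of 0.07 (edgeR adjusted p = 1.47e-04). *Cnn3*, an acidic calponin and the most abundant of the 3 per length (78.3% in C75S and 82.6% in WT), was at 359 ± 14.6 CPM for C75S against 349 ± 5.96 CPM for WT, with a log2 fold change of 0.04, SE 0.05 (adjusted p = 0.801). *Cnn1*, the smooth muscle calponin, was at 22.3, 21.6 and 29.3 CPM in the C75S libraries and 21.6, 15.7 and 18.0 CPM in the WT libraries. C75S replicate 3 was high and WT replicate 1 reached the level of the other C75S libraries, and the difference, a log2 fold change of 0.40, SE 0.13 (adjusted p = 0.121), was called in 3 of the 15 alternatives.

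Non-muscle myosin II is the motor that contracts stress fibres. Among its 4 listed chains *Myl9*, a regulatory light chain of smooth muscle and non-muscle cells (ENSMUSG00000067818, chromosome 2, 156775420 to 156781658, plus strand), was called. It was at 20.4, 20.4 and 25.4 CPM in the C75S libraries and 18.6, 16.8 and 15.8 CPM in the WT libraries, and C75S replicate 3 stood apart above the other 2. The rise was 1.29-fold, a log2 fold change of 0.37 with an SE of 0.10 (edgeR adjusted p = 0.0413), and was lost under DESeq2 and without C75S replicate 3, WT replicate 2 or WT replicate 3 (edgeR adjusted p up to 0.3, without C75S replicate 3). *Myl12a*, the other regulatory light chain, was at 99.6 ± 1.95 CPM for C75S against 92.6 ± 1.26 CPM for WT, with a log2 fold change of 0.11, SE 0.05 (adjusted p = 0.361), and part of its exons is shared on the same strand with *Myl12b*. *Myh9*, the heavy chain of myosin IIA, was at 1451, 1504 and 1569 CPM in the C75S libraries and 1361, 1420.0 and 1415 CPM in the WT libraries. All C75S libraries were above WT, but the difference, a log2 fold change of 0.11, SE 0.05 (adjusted p = 0.391), did not pass. *Myh10*, the heavy chain of myosin IIB, was the single gene of the 42 with a value below 0, a log2 fold change of -0.10, SE 0.07 (adjusted p = 0.589). Its levels were 202, 229 and 220.5 CPM in the C75S libraries and 210.4, 227 and 259 CPM in the WT libraries, which overlap.

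Cross-linkers and adhesion proteins held 4 called genes of 11, against 17 of the 42 genes and 1.74% of all tested genes called higher. *Actn1*, alpha-actinin-1, which bundles stress fibres and anchors them at adhesions (ENSMUSG00000015143, chromosome 12, 80167547 to 80260371, minus strand), was at 328, 287 and 304 CPM in the C75S libraries and 247, 239 and 234 CPM in the WT libraries. C75S replicate 1 was highest, all C75S libraries were above WT, and the rise was 1.28-fold, a log2 fold change of 0.35 with an SE of 0.05 (edgeR adjusted p = 1.47e-04). *Actn4*, its more abundant relative, was at 811, 856 and 874 CPM in the C75S libraries and 772, 783 and 761 CPM in the WT libraries, also without overlap, with a log2 fold change of 0.13, SE 0.05 (adjusted p = 0.208) that did not pass. *Flna*, filamin A, which joins filaments into networks (ENSMUSG00000031328, chromosome X, 74223461 to 74249820, minus strand), was at 1025, 995 and 1049 CPM in the C75S libraries and 900.4, 893 and 848 CPM in the WT libraries. It rose 1.16-fold, a log2 fold change of 0.22 with an SE of 0.05 (edgeR adjusted p = 0.0201). The call was lost without C75S replicate 3, WT replicate 2 or WT replicate 3 (adjusted p up to 0.119). *Vasp*, which speeds filament growth at adhesions and cell edges (ENSMUSG00000030403, chromosome 7, 19256929 to 19271817, minus strand), was at 84.3, 82.0 and 84.4 CPM in the C75S libraries and 70.8, 66.0 and 71.2 CPM in the WT libraries. The groups were well apart, a log2 fold change of 0.27 with an SE of 0.05 (edgeR adjusted p = 0.00465), and the call was lost without WT replicate 2 (adjusted p = 0.059). *Lima1*, the LIM protein EPLIN that stabilises filaments (ENSMUSG00000023022, chromosome 15, 99778470 to 99875456, minus strand), was at 132, 131 and 131 CPM in the C75S libraries and 108, 104 and 125 CPM in the WT libraries. The C75S libraries agreed within 2 CPM while WT replicate 3 lay nearest to them. It rose 1.17-fold, a log2 fold change of 0.23 with an SE of 0.06 (edgeR adjusted p = 0.0273), and lost its call in 5 of the 6 fits without 1 library, all but that without WT replicate 3 (adjusted p up to 0.217).

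The remaining genes of this group were not called. *Vcl*, vinculin, a focal adhesion protein, was at 244, 248 and 253 CPM in the C75S libraries and 232, 233 and 238 CPM in the WT libraries. The groups did not overlap, yet the difference was a log2 fold change of 0.08, SE 0.05 (adjusted p = 0.487) and did not pass. *Tln1*, talin-1, which links integrins to actin, was at 316 ± 5.67 CPM for C75S against 302 ± 2.86 CPM for WT, with a log2 fold change of 0.07, SE 0.05 (adjusted p = 0.606), and *Zyx*, zyxin, a sensor of strain in stress fibres, at 419.5 ± 10.1 CPM for C75S against 413 ± 8.71 CPM for WT, with a log2 fold change of 0.02, SE 0.05 (adjusted p = 0.895). *Pdlim5* and *Pdlim7*, PDZ and LIM adaptors of the actin-alpha-actinin system, had log2 fold changes of 0.07 and 0.17 (adjusted p = 0.611 and 0.231), and *Pdlim7* was called without WT replicate 1. *Fhl2*, a LIM protein that is an SRF target and binds SRF, was at 8.67, 8.73 and 9.47 CPM in the C75S libraries and 6.79, 8.24 and 5.14 CPM in the WT libraries. WT replicate 3 was the lowest, there was no overlap, and the difference, a log2 fold change of 0.41, SE 0.15 (adjusted p = 0.184), did not pass.

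Of the 3 genes that join filaments to the plasma membrane or build microvilli, 2 were called higher. This compares with 17 of the 42 genes and 1.74% of all tested genes. *Msn*, moesin, an ERM protein linking actin to the membrane (ENSMUSG00000031207, chromosome X, 96096042 to 96168552, plus strand), was at 136, 118 and 122 CPM in the C75S libraries and 95.6, 88.7 and 81.0 CPM in the WT libraries. All C75S libraries were far above WT, a rise of 1.42-fold, a log2 fold change of 0.50 with an SE of 0.06 (edgeR adjusted p = 2.96e-05). *Ezr*, ezrin, its epithelial relative, was at 34.4, 29.2 and 32.1 CPM in the C75S libraries and 28.1, 27.2 and 29.8 CPM in the WT libraries, which overlap, with a log2 fold change of 0.17, SE 0.08 (adjusted p = 0.361). Per length, *Msn* made up 67.1% ± 0.72 of the pair in C75S and 61.8% ± 2.84 in WT. *Vil1*, villin, which bundles filaments in the microvilli of the bile canaliculus and of bile duct cells (ENSMUSG00000026175, chromosome 1, 74409376 to 74435559, plus strand), was at 26.3, 29.7 and 30.8 CPM in the C75S libraries and 18.9, 16.3 and 19.6 CPM in the WT libraries. Every C75S library was above every WT library, by 1.59-fold in the fit, a log2 fold change of 0.67 with an SE of 0.09 (edgeR adjusted p = 5.18e-05). *Msn* and *Vil1* were called in all 15 alternatives.

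**Figure D3:**
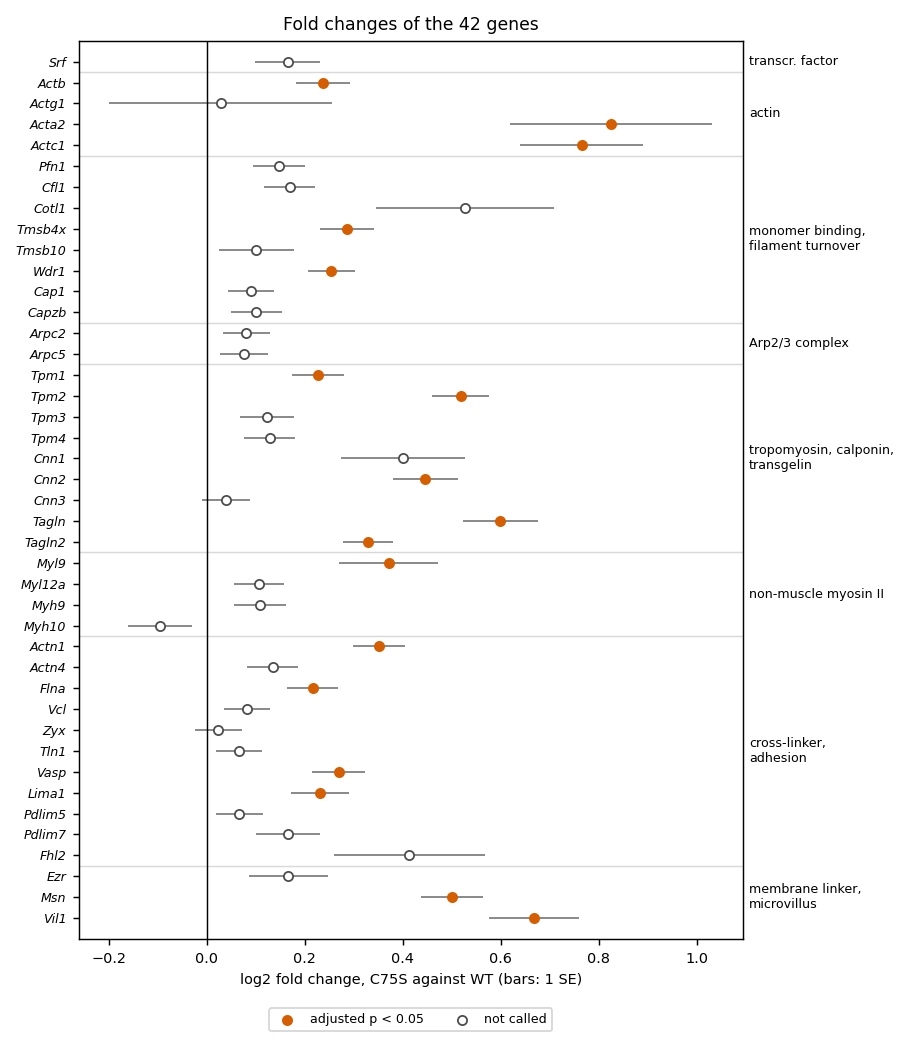
Log2 fold change of C75S against WT for each of the 42 genes, with bars of 1 SE from the edgeR fit; filled orange points passed an adjusted p of 0.05 and open points did not. The called genes include *Acta2* at 0.82, *Actc1* at 0.76, *Vil1* at 0.67 and *Tagln* at 0.60, and *Myh10* at -0.10 is the point left of 0.

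Several of these genes are also markers of other liver cells, so marker lists were read beside them. Over all tested genes, 1.74% were called higher, 1.37% were called lower and 13.4% had an unadjusted edgeR p under 0.05. Smooth muscle and myofibroblast markers (7 genes, 2 with enough counts to test, 0 called by edgeR and 0 at an unadjusted p under 0.05) summed to 1.95 to 2.09 CPM in C75S and 1.601 to 2.924 CPM in WT. *Myh11* had 1 to 4 counts in the C75S libraries and 5 to 11 in WT, *Des* at most 3 counts and *Lmod1* at most 1 in any library, and *Pln* 0 in all. Stellate cell and fibroblast markers (13 genes, 6 tested, 0 called and 0 at an unadjusted p under 0.05) summed to 69.5 to 86.5 CPM in C75S and 83.7 to 108 CPM in WT, and *Lrat*, their defining gene, had 7 to 12 and 3 to 13 counts. Most of that sum was *Reln*, which was called in 1 of the 15 alternatives, at 58.7 ± 8.70 CPM for C75S against 75.2 ± 11.5 CPM for WT. Both sums overlapped between the genotypes. All 5 mesothelial markers had at most 3 counts in every library. Endothelial markers (10 genes, 8 tested, 0 called and 2 at an unadjusted p under 0.05) summed to 43.2 to 54.9 CPM in C75S and 42.7 to 52.3 CPM in WT, with a median log2 fold change of 0.37. Macrophage markers (10 genes, 2 tested, 0 called and 0 at an unadjusted p under 0.05) summed to 96.6 to 140.2 CPM in C75S and 103 to 135 CPM in WT, nearly all of it *Cd68*, and *Adgre1* had at most 1 count. Cholangiocyte markers (8 genes, 6 tested, 1 called and 3 at an unadjusted p under 0.05) were the one marker list whose sums did not overlap between the genotypes. They summed to 242 to 309 CPM in C75S and 202 to 212 CPM in WT, with a median log2 fold change of 0.49. Every C75S library lay above every WT library for 3 of the 6 tested (9.02% of all tested genes showed this). Among these markers the called gene was *Krt19*, at 9.52 ± 1.22 CPM for C75S against 5.47 ± 0.258 CPM for WT (log2 fold change 0.80, SE 0.15, adjusted p = 0.00151). *Spp1* and *Cldn4*, the most abundant of them, were not called at a log2 fold change of 0.53, SE 0.16 (adjusted p = 0.235) and a log2 fold change of 0.53, SE 0.14 (adjusted p = 0.128), but were in 2 and 5 of the 15 alternatives. *Epcam* had 0 to 2 counts in C75S and 3 to 12 in WT, and *Sox9* had a log2 fold change of -0.06. The part of such cells in the values of *Vil1*, *Msn* or the other 40 genes was not tested.

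The further genes of the pathway were read from 4 lists, also chosen with earlier results of these data known. Over all tested genes, 1.74% were called higher, 1.37% were called lower and 49.1% had a log2 fold change above 0. The list of SRF cofactors and upstream signalling genes showed 1 called gene of 26 tested (27 listed), with a median log2 fold change of -0.01. *Rac1*, the GTPase that drives lamellipodia, was that gene, at 158 ± 3.87 CPM for C75S against 140.2 ± 3.08 CPM for WT (log2 fold change 0.18, SE 0.05, adjusted p = 0.0448), and it lost its call in 6 of the 15 alternatives, among them all fits without 1 library except that without WT replicate 1. Of the MRTF genes, *Mrtfa* had a log2 fold change of 0.08, SE 0.07 (adjusted p = 0.693) and *Mrtfb* a log2 fold change of -0.08, SE 0.05 (adjusted p = 0.511). *Myocd*, the muscle cofactor of the same family, had too few counts to test.

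Other SRF targets of the MRTF type held 3 called genes of 11 tested (12 listed), all higher, against 1.74% of all tested genes. The median log2 fold change of this list was 0.20. *Csrp1*, a LIM protein of smooth muscle, rose from 63.6, 56.2 and 56.7 CPM in the WT libraries to 78.3, 78.3 and 86.4 CPM in the C75S libraries (log2 fold change 0.46, SE 0.06, adjusted p = 3.72e-05). *Thbs1*, the matrix protein thrombospondin-1, was at 104, 96.5 and 109 CPM in the C75S libraries and 84.3, 75.1 and 67.1 CPM in the WT libraries (log2 fold change 0.45, SE 0.07, adjusted p = 6.41e-04). Both were called in all 15 alternatives, with no overlap between the genotypes. *Ccn2*, connective tissue growth factor, was at 952 ± 24.5 CPM for C75S against 827 ± 24.7 CPM for WT (log2 fold change 0.20, SE 0.05, adjusted p = 0.029), and lost its call on leaving out either C75S replicate 2 or 3, or either WT replicate 2 or 3. *Ccn1* did not pass, at a log2 fold change of -0.02, SE 0.06 (adjusted p = 0.92). Of the immediate early targets, which SRF serves with the ternary complex factors, 0 of 8 tested genes (9 listed) were called higher. An unadjusted edgeR p under 0.05 was found for 2 of them (13.4% of all tested genes), and the median was -0.03. In the lower direction 1 gene was called (1.37% of all tested genes). That gene was *Egr1*, a zinc finger transcription factor, at 38.0, 38.8 and 32.4 CPM in the C75S libraries and 52.6, 52.1 and 44.5 CPM in the WT libraries. Every C75S library was below every WT library, a log2 fold change of -0.45 with an SE of 0.08 (edgeR adjusted p = 9.84e-04), and the call held in all 15 alternatives. *Fos* and *Junb* did not pass, at a log2 fold change of -0.08, SE 0.14 (adjusted p = 0.877) and a log2 fold change of 0.19, SE 0.06 (adjusted p = 0.137). The difference between the 2 classes of SRF targets was not tested.

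Other actin-binding and motor genes held 8 called genes of 61 tested (62 listed), all higher, against 1.74% of all tested genes. Their median log2 fold change was 0.10, and 46 genes lay above 0, against 49.1% of all tested genes. *Flnc*, filamin C, a muscle-type filamin, had the largest change of the called ones. It was measured at 26.2, 26 and 20.1 CPM in the C75S libraries and 12.3, 15.01 and 12.8 CPM in the WT libraries, without overlap, a log2 fold change of 0.85 with an SE of 0.11 (edgeR adjusted p = 2.86e-05), and was called in all 15 alternatives. The next 5 by p-value were *Palld*, a stress fibre scaffold, *Lpp*, a LIM protein of adhesions, *Pls3*, a filament bundler, *Tes*, another LIM protein, and *Sptbn1*, a spectrin. Their log2 fold changes were 0.20, 0.20, 0.21, 0.21 and 0.20 in the order *Palld*, *Lpp*, *Pls3*, *Tes* and *Sptbn1*, with adjusted p-values from 0.0207 to 0.0271. Each of these 5 lost its call in 3 or 4 of the 6 fits without 1 library. All 5 lost it without WT replicate 2 and without C75S replicate 3. *Lpp*, *Pls3* and *Tes* also lost it without C75S replicate 1, *Sptbn1* without C75S replicate 2, *Lpp*, *Pls3* and *Sptbn1* without WT replicate 1, and *Palld* and *Tes* without WT replicate 3.

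**Figure D4:**
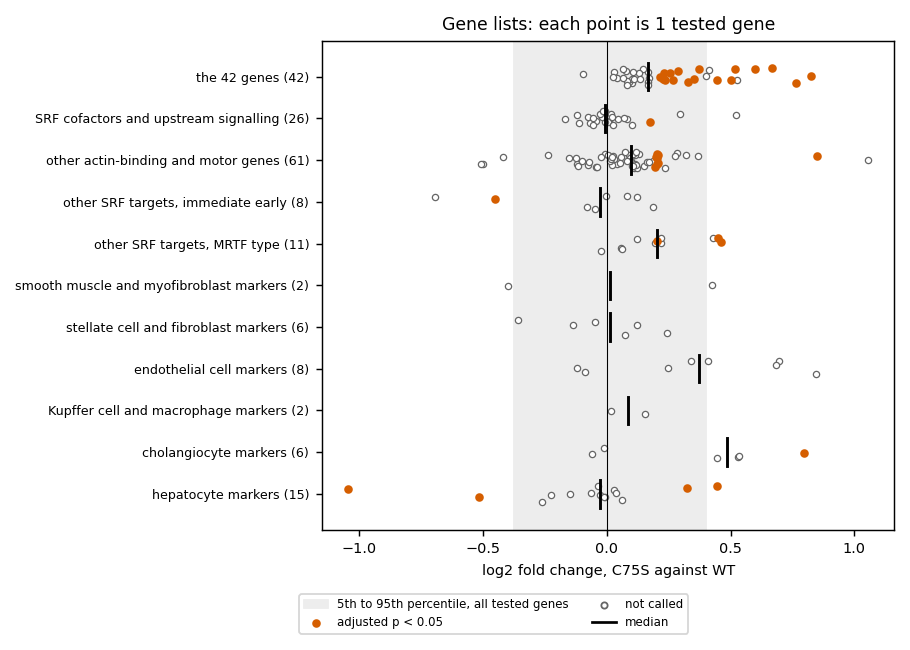
Log2 fold change of every tested gene in the 42 genes and in the pathway and marker lists (number tested in brackets); orange points passed an adjusted p of 0.05, black bars are medians, and the grey band spans the 5th to 95th percentile of all tested genes, from -0.37 to 0.40. The 42 genes have their median at 0.17 and the MRTF-type targets at 0.20, while the cofactor and immediate early lists lie at -0.01 and -0.03.

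The calls on the 42 genes were compared over the 15 alternatives. Of the 17 called genes, 9 were called in all 15: *Actc1*, *Tmsb4x*, *Wdr1*, *Tpm2*, *Cnn2*, *Tagln2*, *Actn1*, *Msn* and *Vil1*. The other 8 lost their call in at least 1. Another 3 genes, *Cfl1*, *Cnn1* and *Pdlim7*, were called in at least 1 alternative. With all 6 libraries kept, 16 to 19 genes were called.

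**Figure D5:**
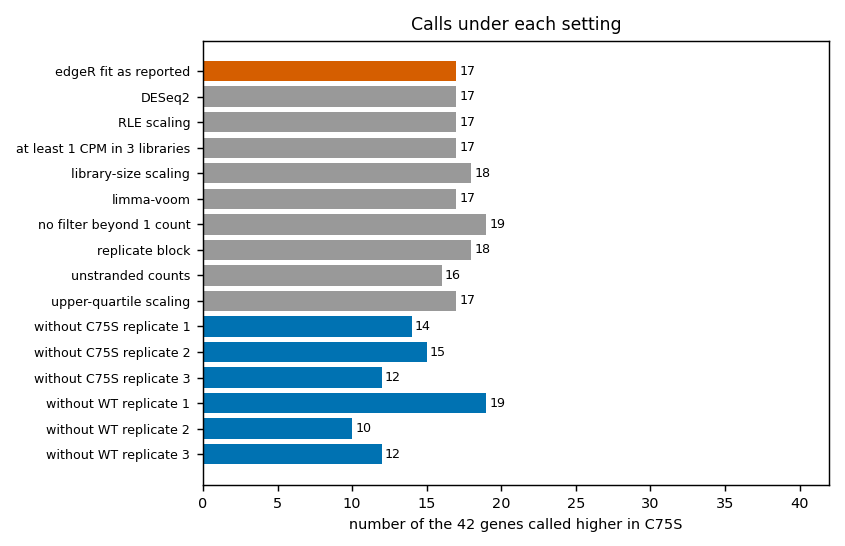
Number of the 42 genes called higher in C75S under the reported edgeR fit (orange), 9 alternatives with all 6 libraries (grey) and 6 fits without 1 library (blue). The count is 16 to 19 with all libraries and 10 to 19 when 1 is left out, lowest without WT replicate 2.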

How the data were processed

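The 6 deposited tables hold raw read counts per Ensembl gene, in the layout written by STAR. Per the submitters' processing notes the tools were Trim Galore 0.6.6, STAR 2.7.9a and edgeR 3.36.0 and the builds mm10 and GRCm38. The annotation release is not given in the sources used here. Per the labels' protocols, libraries were made with a TruSeq RNA kit. Reverse-strand counts were used, because they summed to 32.9 to 33.9 times the forward-strand counts. The 4 summary rows were left out (multimapping reads, 18.0% to 18.5%, were not counted to genes). Genes were placed with GENCODE M21 (GRCm38), which holds 55141 of the 55487 identifiers. The members and lists were chosen with earlier results of these data known. Of 178 list genes, 1 matched through a synonym and 0 were unmatched.

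Genes were filtered with filterByExpr (minimum count 10, minimum total 15), scaled by TMM and tested with edgeR 4.0.16 in R 4.3.3 (quasi-likelihood fit, robust, genotype alone, two-sided, Benjamini-Hochberg over 12741 genes, threshold 0.05). The SE is the size of the log2 fold change over the root of F. CPM values use TMM-scaled library sizes. Copies were sought with BLAST 2.17.0. The procedure was tested on simulated data, with a single draw per setting. Every recovered gene had the right direction, and most genes changed by the smallest simulated fold were missed. With gene-wise dispersions the share of false calls exceeded the nominal threshold at each simulated fold, most at the smallest. With dispersions from the trend over genes it exceeded the threshold at the middle fold. Calls on small changes may therefore carry more error than their adjusted p states. All 42 genes are named. From each list up to 6 called genes by p-value are named, and markers by their level; some listed genes are not reported here. Genes named without a call serve as examples and were picked after their values were seen. The 15 alternatives used other scalings (library size, RLE or upper quartile), other tools (limma-voom from limma 3.58.1, and DESeq2 1.42.0), 2 other filters, unstranded counts, a replicate block and leaving out each library.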

Additional observations from a re-analysis of the deposited data

How the results depend on the processing

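With all 6 libraries kept, the 9 alternatives left the number of called genes between 381 and 573 (396 as reported), the called members between 16 and 19 (17 as reported) and the median log2 fold change of the 42 genes between 0.16 and 0.18. Leaving out 1 library moved these to between 201 and 355 genes, between 10 and 19 members and a median between 0.1633 and 0.2251 (the latter without C75S replicate 2). The genes fell most without WT replicate 2 (201), WT replicate 3 (246) and C75S replicate 1 (253), and the members without WT replicate 2 (10, all of them among the 17). Of the 630 pairs of a member and an alternative, 594 kept direction and side of the threshold, 25 lost the call, 8 gained one and 3 changed direction. All 3 were *Actg1*, whose value lay between -0.0793 and 0.1096 over the fits without 1 library. The median of all tested genes stayed between -0.003 and 0.009. The causes were not tested.

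Replicate numbers are shared between the genotypes in the titles, but same-numbered libraries did not deviate together: their correlations of deviations from the group means were 0.02, -0.04 and 0.03, against -0.04 to 0.02 for other pairs. With the replicate block 480 genes and 18 members were called, with a median of 0.17 over the members. *Cnn1* was the member gained. C75S replicate 1 correlated best with WT replicate 2, so not every library correlated best with its own number. Depth limits the low genes: *Acta2*, *Actg1* and *Cotl1* had SE values of 0.18 to 0.23, against 0.05 for the abundant ones.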

Other observations

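*Acta1*, skeletal muscle alpha-actin and a textbook SRF target, is on none of the lists and was looked at after the values of the other actins had been seen. It was measured at 74.6, 70.7 and 100.5 CPM in the C75S libraries and 53.7, 48.0 and 48.0 CPM in the WT libraries, so that it stood above *Acta2* and *Actc1* per length in WT (96.2 against 3.53 and 18.1 units). All C75S libraries were above all WT libraries, with C75S replicate 3 the highest. The difference, a log2 fold change of 0.71, SE 0.14 (adjusted p = 0.0627), missed the threshold in edgeR's test, and it passed in 6 of the 15 alternatives, with adjusted p-values up to 0.274. *Actg2*, smooth muscle gamma-actin, had 0 to 7 counts in each library.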
